A study of Homo sapiens with 8 samples.

Results

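KMS11 is an established MM cell line that carries the t(4;14) translocation. The response of these cells to the statin fluvastatin was measured by RNA-seq in cells kept for 24 h in ethanol, the solvent, or in the drug at 2 µM. Each treatment had 2 biological replicates, so that the response rested on 4 of the 8 libraries of the study. They were picked by their labels alone, KMS11 with ethanol and KMS11 with fluvastatin. The other 4 libraries came from H929, a second t(4;14) MM line given the same 2 treatments for the same 24 h, and they were used for the estimate of the spread and for tests of where the lines differed. All cells grew in RPMI 1640 with serum. Each group is a single cell line. The p-values rest on the spread between the 2 samples of a group, pooled over the 4 groups of both lines.

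Statins block the mevalonate (MVA) pathway near its start. The pathway supplies both cholesterol and the isoprenoid lipids that anchor small GTPases to membranes. When sterols in the endoplasmic reticulum fall, the transcription factor SREBP2 is no longer held there by INSIG and is carried to the Golgi by its escort SCAP. After cleavage in the Golgi it enters the nucleus and raises transcription of the pathway's own enzymes and of genes for cholesterol uptake. Plasma cells, the cells from which MM arises, carry a heavy load of secretory protein and depend on stress signalling from the endoplasmic reticulum, part of which runs through the integrated stress response (ISR) and its transcription factor ATF4.

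The sterol genes described below are known to share regulation by SREBP, so the letters before their start sites are shown first. Promoter sequence was taken from RefSeq (GRCh38.p14) for 10644 of the 13129 genes tested, and the 250 bases before the annotated start were searched on both strands. The motif CCAAT, the binding sequence of NF-Y, a factor known to act beside SREBP, was present in 15 of the 18 matched sterol genes that rose (83.3%), in 2 of the 11 matched sterol genes that did not pass the threshold (18.2%) and in 35.9% of the matched genes tested. The GC box GGGCGG was present in 17 of the 18 (94.4%), in 7 of the 11 (63.6%) and in 66.6% of all. The sterol regulatory element as TCACNCCAC was present in 0.827% of all and, among the sterol genes, in SREBF2 only, whose change did not pass the threshold. The shorter core CACNCCAC was present in 1 of the 18 and in 4.56% of all. These matches describe the letters in the window and may overlap each other. No RefSeq entry was matched for ACAT2, FDFT1 and SQLE. The 180 bases directly before the start are shown, 5′ to 3′ along the gene's strand, for 4 enzymes that rose and for 2 enzymes of the same route that did not pass the threshold, with CCAAT or its reverse complement ATTGG in capitals. The windows are chr16:88663092-88663271 on the minus strand for MVD, chr5:43313413-43313592 (minus) for HMGCS1, chr4:165327489-165327668 (plus) for MSMO1, chr21:46228775-46228954 (minus) for LSS, chr1:154936720-154936899 (minus) for PMVK and chr1:235327036-235327215 (plus) for GGPS1.
MVD: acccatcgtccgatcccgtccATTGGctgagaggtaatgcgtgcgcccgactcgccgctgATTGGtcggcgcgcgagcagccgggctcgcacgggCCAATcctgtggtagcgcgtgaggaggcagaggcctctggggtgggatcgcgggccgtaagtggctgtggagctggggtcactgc
HMGCS1: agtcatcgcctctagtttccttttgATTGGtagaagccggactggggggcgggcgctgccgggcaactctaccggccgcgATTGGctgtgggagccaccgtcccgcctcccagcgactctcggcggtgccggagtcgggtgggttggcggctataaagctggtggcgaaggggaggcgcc
MSMO1: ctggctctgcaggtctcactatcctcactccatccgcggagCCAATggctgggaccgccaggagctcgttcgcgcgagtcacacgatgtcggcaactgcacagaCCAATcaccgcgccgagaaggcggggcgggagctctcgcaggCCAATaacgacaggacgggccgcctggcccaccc
LSS: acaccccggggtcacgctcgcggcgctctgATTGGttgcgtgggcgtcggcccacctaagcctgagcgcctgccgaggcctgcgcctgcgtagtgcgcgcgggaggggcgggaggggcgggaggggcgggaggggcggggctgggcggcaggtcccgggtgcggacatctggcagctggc
PMVK: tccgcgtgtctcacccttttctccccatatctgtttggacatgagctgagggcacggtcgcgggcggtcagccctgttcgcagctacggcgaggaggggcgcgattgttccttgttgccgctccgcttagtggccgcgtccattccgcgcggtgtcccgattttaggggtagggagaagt
GGPS1: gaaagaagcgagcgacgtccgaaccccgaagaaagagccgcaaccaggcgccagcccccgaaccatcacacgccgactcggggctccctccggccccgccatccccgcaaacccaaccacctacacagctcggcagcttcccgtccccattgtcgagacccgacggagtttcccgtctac
The windows of MVD and MSMO1 hold 3 matches each, that of HMGCS1 holds 2 and that of LSS holds 1, while PMVK and GGPS1 hold none.

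Expected counts, in which RSEM divides a fragment among the genes it could come from, summed to 41704958 and 40470834 in the ethanol libraries and to 30721780 and 41910446 in the fluvastatin libraries. Levels are given as CPM, counts scaled by edgeR's TMM method to a common library size, and are compared between samples and not between genes. Markers of plasma cells summed to between 7880 and 10400 CPM in each KMS11 library. The B cell markers MS4A1 and CD22, the T cell and NK cell markers CD3D and NKG7 and the monocyte markers CD14, FCGR3A and CSF1R had 0 counts in all 4. Other members of these lists had counts. On the same scale the B cell list summed to between 31 and 47.8 per library and the epithelial list to between 84.7 and 94.2. The T and NK cell list summed to between 0.859 and 1.77 and the monocyte list to between 0.0239 and 0.358. In bulk RNA, fewer cells of a state and less RNA per cell cannot be told apart.

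Fluvastatin replicate 1 stood apart from the other 3 libraries in its dependence on GC content. The slope of a library's log2 CPM, taken relative to the gene's mean over the 4 KMS11 libraries, was 0.246 per 10% of GC content in this library, against -0.0457 in fluvastatin replicate 2 and -0.111 and -0.0896 in ethanol replicates 1 and 2. Among the 1859 genes with at least 60% GC, the median log2 ratio to the ethanol mean was 0.718 in fluvastatin replicate 1 and 0.141 in fluvastatin replicate 2. Among the 2311 genes under 40% GC it was -0.225 and -0.0186. The spread between the 2 fluvastatin libraries (SD of the log2 ratio of 0.252 over 5561 well-expressed genes) exceeded that between the 2 ethanol libraries (0.126). This was also the smallest of the 4 libraries, with the lowest share of counts in protein-coding genes (88.1% against 90.8% to 91.4%). The fitted log2 fold change rose with GC content across genes, with a rank correlation of 0.483 that was 0.0102 once the trends had been removed, a description over genes that share the same 4 libraries. Counts are therefore given as deposited, after removal of each library's GC trend by a smooth curve, and without fluvastatin replicate 1. What gave this library its trend was not tested.

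**Figure D1:**
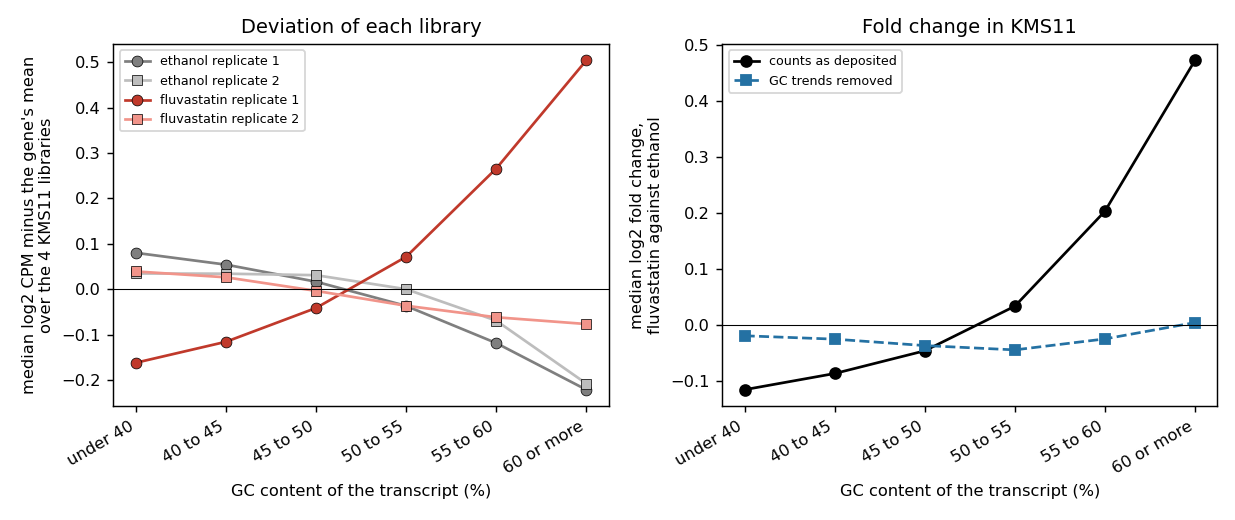
Left, the median log2 CPM of each KMS11 library relative to the gene's mean over the 4 libraries (vertical axis) in bins of transcript GC content (horizontal axis, %). Right, the median log2 fold change in the same bins from the counts as deposited (black) and after removal of GC trends (blue). Fluvastatin replicate 1 climbs from -0.162 under 40% GC to 0.504 at 60% GC or more, and the median fold change climbs from -0.116 to 0.473 with it.

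Of 13129 protein-coding genes tested, 409 changed in KMS11 at an adjusted p under 0.05 in edgeR's quasi-likelihood test (3.12%), of which 339 were higher (2.58%) and 70 lower (0.533%) with fluvastatin. The groups did not overlap for any of the 409, and over all genes tested 26.9% had both fluvastatin values above and 26.5% below both ethanol values. The median log2 fold change was 0.896 among the higher genes and -0.586 among the lower, and 147 genes rose but 9 fell by at least 2-fold. After removal of the GC trends 1707 genes changed, 940 higher (7.16%) and 767 lower (5.84%), so that higher genes made up 55.1% of the calls in place of 82.9%. Of the 409 genes, 396 remained past the threshold with the same direction, and the 13 that did not were all higher, with a median GC content of 60.6% against 47.8% over all genes. Without fluvastatin replicate 1, 254 genes were higher (1.89% of 13470) and 31 lower (0.23%), and 241 of the 409 were among these 285. Leaving out ethanol replicate 1 or 2 left 63 and 72 genes, and leaving out fluvastatin replicate 2 gave 2148. Of the 83 genes named by rule that passed the threshold, 51 and 46 no longer passed it without ethanol replicate 1 and 2, 14 without fluvastatin replicate 1 and 0 without fluvastatin replicate 2. The calls lost without an ethanol replicate are named with the genes below, with the range of each gene's larger adjusted p in those 2 fits. Those lost without fluvastatin replicate 1 carry that p or are marked as not passing.

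The enzymes of the MVA pathway rose together. Of the 9 measured members from ACAT2 to GGPS1, 7 were higher and 0 lower, with a median log2 fold change of 1.34 beside 0.00 over all genes tested. HMGCS1, which makes HMG-CoA, was at 175 and 173 CPM in ethanol and at 645 and 786 CPM in fluvastatin. Both fluvastatin libraries lay far above both ethanol libraries, a rise of 2.04 on the log2 scale (SE 0.11, edgeR adjusted p = 1.3e-05). ACAT2, which opens the route by joining acetyl units, rose by 1.34 (SE 0.11, edgeR adjusted p = 0.00017) from 67.8 and 76.0 CPM to 169 and 196 CPM.

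Further along the route, 2 of the enzymes did not pass. MVD, which decarboxylates mevalonate diphosphate, went from 8.59 and 8.29 CPM to 50.7 and 28.3 CPM, the largest fitted rise of the pathway (2.22, SE 0.30, edgeR adjusted p = 0.0042). The higher fluvastatin value came from replicate 1, the GC content of the gene is 65.5%, and its rise was 1.63 with GC trends removed. Mevalonate kinase, MVK, rose by 1.47 (SE 0.22, edgeR adjusted p = 0.0077), while PMVK, the kinase of the next step, was at 47.8 and 47.5 CPM in ethanol and 63.1 and 48.4 CPM in fluvastatin and did not pass the threshold (0.22, SE 0.16, edgeR adjusted p = 0.42). IDI1, which isomerizes the isoprenoid building block, rose by 1.02 (SE 0.11, edgeR adjusted p = 0.00089), and FDPS, which assembles farnesyl diphosphate, by 0.77 (SE 0.10, edgeR adjusted p = 0.0043). GGPS1, which extends farnesyl to geranylgeranyl diphosphate, had 59.4 and 57.0 CPM against 58.0 and 63.1 CPM, so that the groups overlapped (0.06, SE 0.12, edgeR adjusted p = 0.82). MVD, MVK and FDPS no longer passed without ethanol replicate 1 or without ethanol replicate 2 (edgeR adjusted p from 0.066 to 0.12). IDI1 passed without ethanol replicate 2 but not without ethanol replicate 1 (edgeR adjusted p = 0.051).

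The branch from farnesyl diphosphate to cholesterol rose almost without exception. Of its 14 genes 13 were higher and 0 lower, with a median of 1.16, and the same 13 of 14 was reached with GC trends removed and without fluvastatin replicate 1. FDFT1, squalene synthase, went from 128 and 134 CPM to 300.4 and 319 CPM, a rise of 1.24 (SE 0.12, edgeR adjusted p = 0.00044). SQLE, which adds oxygen to squalene, rose by 1.21 (SE 0.12, edgeR adjusted p = 0.00048), and LSS, which closes the rings to form lanosterol, by 1.5 (SE 0.20, edgeR adjusted p = 0.0036). DHCR7, which carries out a last reduction of the route, had 47.5 and 54.9 CPM in ethanol and 158 and 122 CPM in fluvastatin. The groups did not overlap, and the rise was 1.45 (SE 0.18, edgeR adjusted p = 0.0023).

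Of the middle steps, MSMO1 rose by 1.42 and CYP51A1 by 1.10, both demethylation enzymes of lanosterol. NSDHL rose by 0.84, HSD17B7 by 0.93, ERG28, which holds this complex together, by 0.77, EBP by 0.62 and SC5D by 0.78, all with adjusted p in edgeR's test between 0.00013 and 0.0081. TM7SF2, a reductase at the C14 position, was a weakly expressed gene at 2.01 and 1.59 CPM that reached 6.72 and 4.96 CPM (1.69, SE 0.27, edgeR adjusted p = 0.0095). LBR, a nuclear envelope protein that carries the same reductase activity, was the exception of the list, with 639 and 620 CPM in ethanol, 592 and 688 CPM in fluvastatin and overlapping groups (0.02, SE 0.10, edgeR adjusted p = 0.92). ERG28, EBP, SC5D and TM7SF2 no longer passed without ethanol replicate 1 or without ethanol replicate 2 (edgeR adjusted p from 0.13 to 0.18). LSS, DHCR7, NSDHL and HSD17B7 passed without ethanol replicate 2 but not without ethanol replicate 1 (edgeR adjusted p from 0.054 to 0.13).

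**Figure D2:**
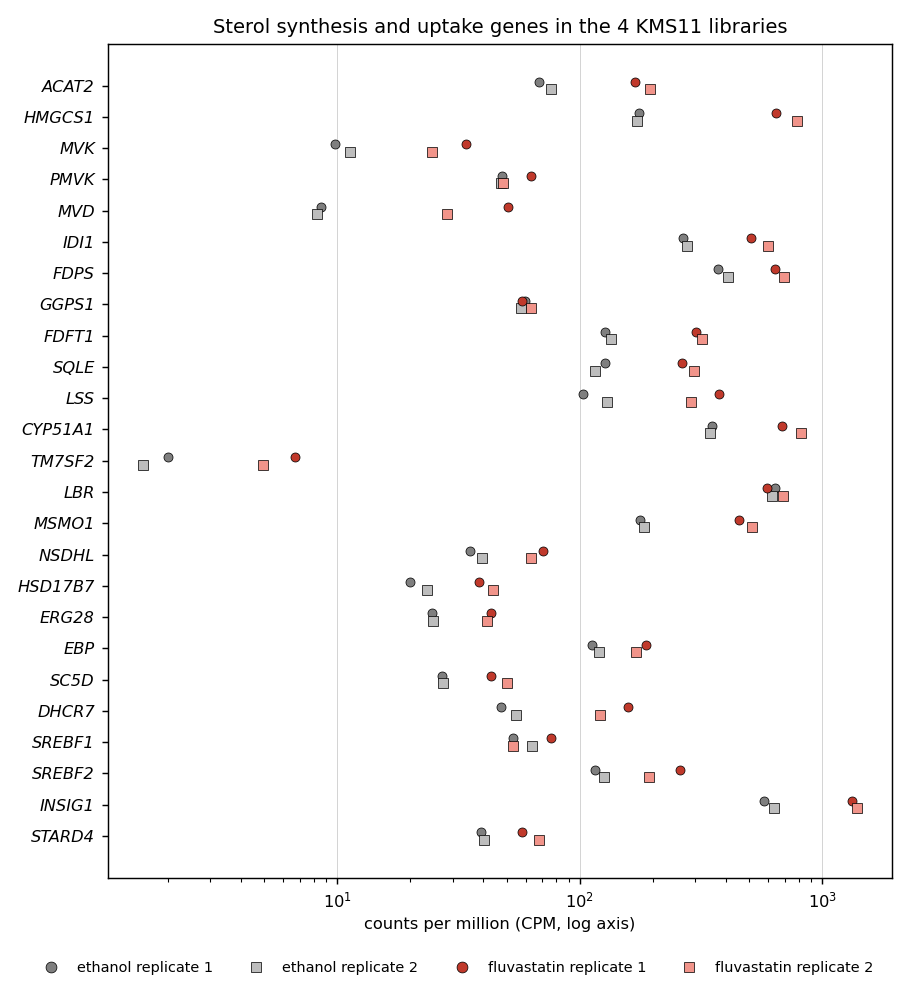
Levels of MVA pathway enzymes, cholesterol synthesis enzymes and 4 regulators or transporters in each of the 4 KMS11 libraries (CPM, log axis), with ethanol in grey and fluvastatin in red. The ethanol and fluvastatin points are apart for most rows and run together for PMVK, GGPS1, LBR and SREBF1.

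Regulators and carriers of sterol responded less uniformly. Of 14 measured genes for SREBP control and LDL uptake, 4 were higher and 0 lower, with a median of 0.25. INSIG1, which holds SREBP back when sterol is plentiful and is itself a target of SREBP, went from 575 and 634 CPM to 1329 and 1389 CPM, the fluvastatin values lying close together and above both ethanol values (1.17, SE 0.19, edgeR adjusted p = 0.011). STARD4, a carrier of sterol between membranes, rose by 0.67 (SE 0.12, edgeR adjusted p = 0.018), and NPC1, which exports cholesterol from lysosomes, by 0.50 (SE 0.11, edgeR adjusted p = 0.037, or 0.11 without fluvastatin replicate 1). The SREBP genes themselves did not pass. SREBF2 had 116 and 126 CPM against 259.8 and 193 CPM (0.90, SE 0.21, edgeR adjusted p = 0.050, or 0.0040 with GC trends removed). SREBF1 had 53.1 and 63.6 CPM against 76.3 and 53.1 CPM, with overlapping groups (0.15, SE 0.28, edgeR adjusted p = 0.79). The sign for SREBF1, a gene of 63.2% GC, depended on the processing. With GC trends removed its log2 fold change was -0.33, without overlap (SE 0.15, edgeR adjusted p = 0.17). Without fluvastatin replicate 1 it was -0.14. In the 3 lists together 24 of the 37 genes measured were higher and 0 lower. The count was 26 with GC trends removed. Fewer of these genes passed when an ethanol replicate was left out, though fitted rises such as those of the first enzymes stayed near their size. Without ethanol replicate 1 and 2, ACAT2 rose by 1.23 and 1.40, HMGCS1 by 2.02 and 2.00 and MVK by 1.34 and 1.55. INSIG1, STARD4 and NPC1 no longer passed without ethanol replicate 1 or without ethanol replicate 2 (edgeR adjusted p from 0.16 to 0.33).

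The response of the sterol genes was then set against that of H929. In that line, where 22.7% of all genes were higher and 19.3% lower with fluvastatin, 6 of the same 37 genes were higher and 8 lower. When the 2 responses were tested against each other, 27 of the 37 passed, against 23.2% of all genes tested. The log2 fold change of KMS11 was the higher one for 24 and the lower one for 3. Wide gaps were those of MVD (2.67, SE 0.43, edgeR adjusted p = 0.0027), DHCR7 (2.36, edgeR adjusted p = 0.00043) and ACAT2 (2.00, edgeR adjusted p = 9.5e-05), each given as the log2 fold change in KMS11 minus that in H929. In H929, DHCR7 fell by 0.92 on the log2 scale (edgeR adjusted p = 0.0030), while HMGCS1 had a log2 fold change of 0.24 (edgeR adjusted p = 0.098). GGPS1 went the other way, with a response lower in KMS11 by 0.61 (edgeR adjusted p = 0.033), as it rose in H929. The count of 27 lay between 19 and 31 in every alternative run for it.

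**Figure D3:**
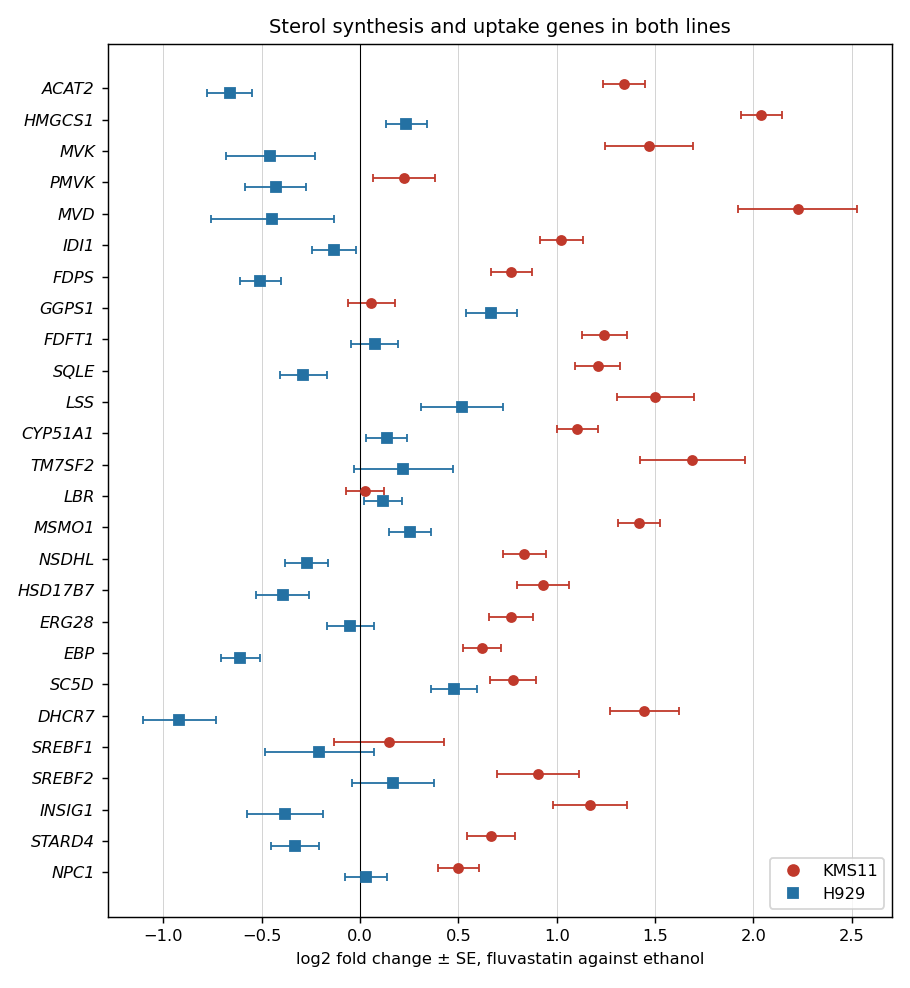
Log2 fold change with its standard error (horizontal axis) for sterol genes in KMS11 (red circles) and H929 (blue squares). The KMS11 points of the enzymes lie mostly between 0.62 and 2.22, and the H929 points lie on both sides of 0, from -0.92 for DHCR7 to 0.67 for GGPS1.

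Genes of fatty acid synthesis, some of which are also SREBP targets, gave 4 higher and 0 lower of 18, with a median of 0.43. ACSS2, which makes acetyl-CoA from acetate, went from 7.75 and 8.89 CPM to 28.4 and 25.4 CPM, without overlap (1.69, SE 0.16, edgeR adjusted p = 0.00052). ACLY, which makes acetyl-CoA from citrate, rose by 0.72 (SE 0.10, edgeR adjusted p = 0.0043), and the elongase ELOVL6 by 0.74 (SE 0.12, edgeR adjusted p = 0.012). FASN, fatty acid synthase, had 71.3 and 68.2 CPM in ethanol and 329.9 and 138 CPM in fluvastatin. Its 2 fluvastatin libraries differed by more than 2 times, its GC content is 65.3%, and its fitted rise of 1.74 (SE 0.40, edgeR adjusted p = 0.047) was 1.11 with GC trends removed (adjusted p = 0.0025) and 0.97 without fluvastatin replicate 1 (adjusted p = 0.13). With GC trends removed the list had 8 higher and 1 lower. ACLY, ELOVL6 and FASN no longer passed without ethanol replicate 1 or without ethanol replicate 2 (edgeR adjusted p from 0.10 to 0.30).

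LXR is a receptor for oxidized sterols whose targets drive cholesterol out of cells. Of 9 measured targets 0 were higher and 3 lower (median -0.02), a count that was the same with GC trends removed and without fluvastatin replicate 1. By unadjusted p under 0.05 there were 0 higher and 4 lower, where 13.7% of all genes tested were higher and 8.23% lower. DESeq2 also gave 0 and 3, where it called 5.92% of the 11092 genes it adjusted higher and 2.43% lower. ABCA1, the cholesterol exporter, stood at 137 and 159 CPM in ethanol and 63.3 and 80.1 CPM in fluvastatin. The higher fluvastatin value was well under the lower ethanol value, a fall by 1.04 on the log2 scale (SE 0.12, edgeR adjusted p = 0.0019). MYLIP, a ubiquitin ligase, fell by 0.96 (SE 0.13, edgeR adjusted p = 0.0048), and ABCG1, a second exporter, by 0.64 (SE 0.14, edgeR adjusted p = 0.037). In H929 the falls of ABCA1 and ABCG1 were deeper, with differences of 1.42 and 1.67 (edgeR adjusted p = 0.00086 and 0.0012), while the difference for MYLIP did not pass (-0.35, SE 0.19, edgeR adjusted p = 0.21). MYLIP and ABCG1 no longer passed without ethanol replicate 1 or without ethanol replicate 2 (edgeR adjusted p from 0.067 to 0.28).

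None of the 18 measured enzymes and accessory proteins that attach or trim prenyl groups passed, 0 higher and 0 lower in edgeR's test, with a median of -0.05. Over all genes tested 3.12% passed. By unadjusted p under 0.05 there were 1 higher and 4 lower, and DESeq2 gave 0 and 0. Of 23 measured small GTPases and regulators of the RHOB family, whose proteins are prenylated or bind prenylated partners, 4 were higher and 0 lower, with a median of 0.29, and 8 were higher with GC trends removed. RHOB (ENSG00000143878.9, chromosome 2, 20447074 to 20449440 of GRCh38), a short-lived GTPase known to be induced when geranylgeranylation fails, had 11.2 and 10.6 CPM in ethanol and 125 and 80.3 CPM in fluvastatin, a rise of 3.23 (SE 0.20, edgeR adjusted p = 3.5e-05). RND3, a GTPase that opposes RHOA signalling, went from 21.6 and 25.7 CPM to 100.3 and 149.5 CPM (2.40, SE 0.23, edgeR adjusted p = 0.00049). RHOC rose by 1.09 (SE 0.13, edgeR adjusted p = 0.0024) and RHOA by 0.52 (SE 0.11, edgeR adjusted p = 0.037, or 0.058 without fluvastatin replicate 1). These rises were smaller in KMS11 than in H929 for RHOB (difference -2.10, edgeR adjusted p = 0.00089), RHOC (-1.24, adjusted p = 0.0019) and RHOA (-0.87, adjusted p = 0.0043), but the difference did not pass for RND3 (-0.53, SE 0.32, adjusted p = 0.25). RHOA no longer passed without ethanol replicate 1 or without ethanol replicate 2 (edgeR adjusted p = 0.35).

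**Figure D4:**
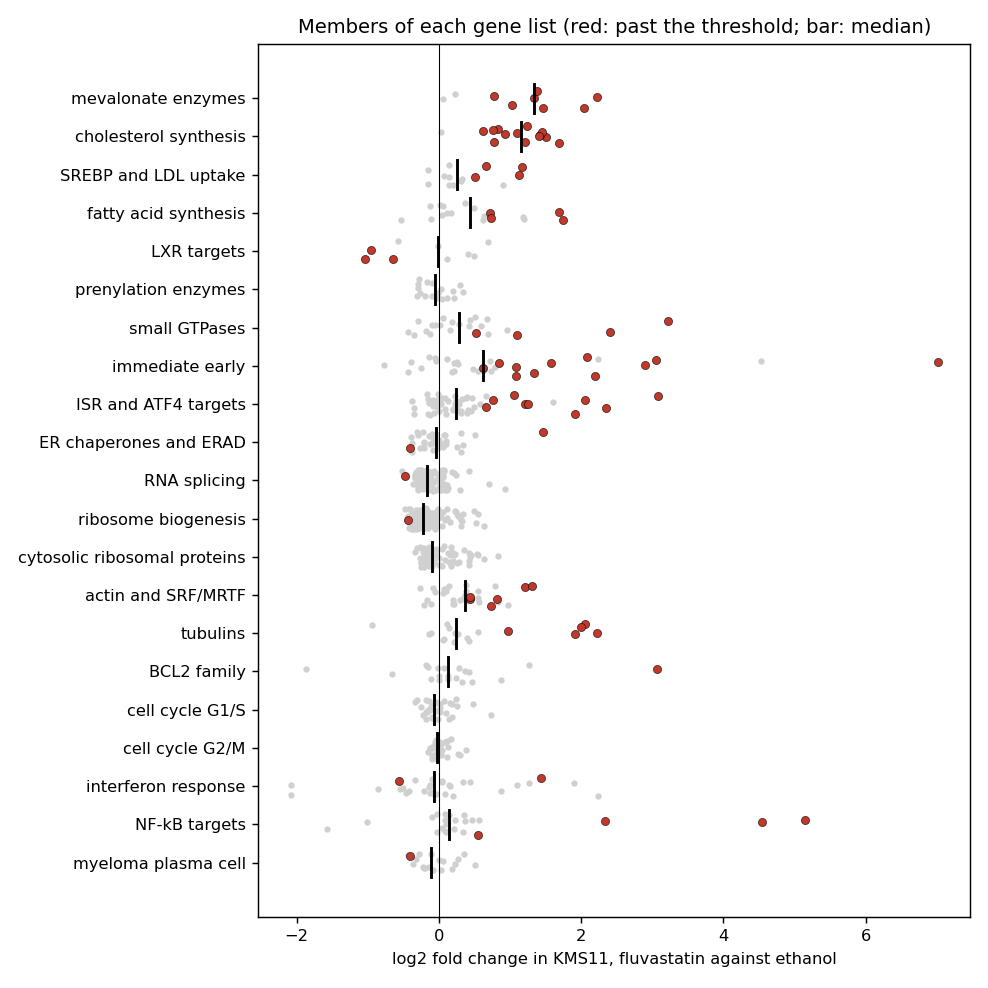
Log2 fold change in KMS11 (horizontal axis) of every measured member of the 21 gene lists, with members past the threshold in red, the others in grey and the list's median as a bar. The medians of the MVA and cholesterol lists are 1.34 and 1.16, and those of the other lists lie between -0.22 for ribosome biogenesis and 0.62 for immediate early genes.

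Immediate early genes and transcription factors of the AP-1 and KLF families had the most calls of any list outside sterol metabolism, with 11 higher and 0 lower of 32 and a median of 0.62, which was 0.26 with GC trends removed (12 higher, 2 lower). Without fluvastatin replicate 1 the list had 7 higher and 1 lower, and without ethanol replicate 1 or 2 it had 6 higher. JUN, a core AP-1 factor, went from 5.06 and 3.83 CPM to 38.6 and 35.5 CPM, nearly the same in both fluvastatin libraries (3.06, SE 0.18, edgeR adjusted p = 2.4e-05). JUND rose by 2.08 (SE 0.20, edgeR adjusted p = 0.00048) and, as a gene of 69.9% GC, by 1.42 with GC trends removed. KLF2, a factor downstream of MEK5 and ERK5 that statins are known to induce, went from 0.287 and 0.328 CPM to 2.56 and 2.11 CPM (2.90, SE 0.31, edgeR adjusted p = 0.00089), and KLF6 from 74.5 and 74.3 CPM to 201 and 174 CPM (1.33, SE 0.12, edgeR adjusted p = 0.00031). The dual-specificity phosphatases, which switch off MAP kinases, were among the calls. DUSP16, which acts on JNK, went from 19.5 and 19.8 CPM to 85.4 and 94.3 CPM (2.19, SE 0.11, edgeR adjusted p = 1.3e-05). DUSP8 had 1 count over both ethanol libraries and 147 over both fluvastatin libraries, a ratio of 166 per total count with an exact binomial 95% interval of 29.4 to 6610 that covers counting error only.

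The ISR list gave 9 higher and 0 lower of 56, with a median of 0.24. With GC trends removed it had 15 higher and 5 lower and a median of 0.09, where 7.16% of all genes tested were higher and 5.84% lower. ATF3, a stress-induced repressor, went from 6.55 and 5.88 CPM to 30.4 and 32.7 CPM, a rise of 2.34 (SE 0.14, edgeR adjusted p = 2.4e-05) that was 2.30 with GC trends removed and 2.39 without fluvastatin replicate 1. CHAC1, which degrades glutathione, went from 0.600 and 0.328 CPM to 5.20 and 2.82 CPM (3.07, SE 0.50, edgeR adjusted p = 0.011). DDIT3, the factor CHOP, had 3.78 and 4.10 CPM against 7.80 and 8.56 CPM, a modest but tight change of 1.05 (SE 0.17, edgeR adjusted p = 0.0093). PPP1R15A, which returns eIF2 to its active form, rose by 1.21 (SE 0.18, edgeR adjusted p = 0.0059), SESN2, an inhibitor of mTORC1, by 1.25 (SE 0.20, edgeR adjusted p = 0.011) and the glycine transporter SLC6A9 by 1.91 (SE 0.31, edgeR adjusted p = 0.011). JDP2 rose by 2.06 (SE 0.43, edgeR adjusted p = 0.035, or 0.092 without fluvastatin replicate 1). ATF4 itself, which is controlled mainly at translation, had 282 and 249 CPM in ethanol and 324.5 and 334 CPM in fluvastatin, without overlap but without passing the threshold (0.31, SE 0.13, edgeR adjusted p = 0.19). In H929 39 of the 56 were higher, and the difference between lines passed for 23, all with the lower log2 fold change in KMS11. DDIT3 was one of them (-0.89, edgeR adjusted p = 0.021), whereas for ATF3 the difference was 0.10 (SE 0.19, edgeR adjusted p = 0.75). Without ethanol replicate 1 and 2 the list had 2 and 1 higher genes. CHAC1, DDIT3, PPP1R15A, SESN2 and JDP2 no longer passed without ethanol replicate 1 or without ethanol replicate 2 (edgeR adjusted p from 0.10 to 0.28). SLC6A9 passed without ethanol replicate 1 but not without ethanol replicate 2 (edgeR adjusted p = 0.13).

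The unfolded protein response in the endoplasmic reticulum gave 1 higher and 1 lower of 39 chaperones and degradation factors, with a median of -0.05. Over all genes tested 2.58% were higher and 0.533% lower. EIF2AK3, the kinase PERK that starts the ISR from the endoplasmic reticulum, went from 126 and 139 CPM to 310 and 422 CPM (1.46, SE 0.14, edgeR adjusted p = 0.00045). XBP1, the factor that plasma cells need for secretion, had 978 and 1035 CPM against 741 and 783 CPM, a fall by 0.40 on the log2 scale (SE 0.08, edgeR adjusted p = 0.035, or 0.11 without fluvastatin replicate 1). The chaperone HSPA5 had 491 and 515 CPM against 418 and 455 CPM (-0.21, SE 0.09, edgeR adjusted p = 0.20). XBP1 no longer passed without ethanol replicate 1 or without ethanol replicate 2 (edgeR adjusted p = 0.29).

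In the cytoskeleton, 6 of 33 actin and SRF target genes were higher and 0 lower (median 0.37, with 13 higher once GC trends were removed and 4 without fluvastatin replicate 1), and 5 of 18 tubulins were higher and 0 lower (median 0.25). TUBA1A, an α-tubulin, went from 60.5 and 62.4 CPM to 278 and 234 CPM (2.06, SE 0.11, edgeR adjusted p = 1.3e-05). The β-tubulins TUBB2B (2.22), TUBB3 (2.00), TUBB2A (1.92) and TUBB6 (0.97) rose with adjusted p in edgeR's test from 0.00028 to 0.036, TUBB6 reaching 0.072 without fluvastatin replicate 1. Tubulin genes are close in sequence, and reads may have been divided between them. TUBB2B and TUBB2A rose more in KMS11 than in H929 (differences 1.83 and 1.56, edgeR adjusted p = 0.0015 and 0.0027). In the list of actin and SRF target genes, LMNA (1.31), which encodes lamin A, TPM4 (0.81), a tropomyosin, MYL12A (0.73), a light chain of myosin, and γ-actin ACTG1 (0.44) rose with edgeR adjusted p of 0.0075, 0.0078, 0.0051 and 0.031. Zyxin, ZYX, rose by 1.21 (edgeR adjusted p = 0.030) and by 0.80 without fluvastatin replicate 1, where it did not pass. With GC trends removed, ACTG1 no longer passed (adjusted p = 0.071), the only one of the 83 named genes to be lost in that way, and LMNA rose by 0.89. TUBB6, LMNA, TPM4, MYL12A, ACTG1 and ZYX no longer passed without ethanol replicate 1 or without ethanol replicate 2 (edgeR adjusted p from 0.097 to 0.38).

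Few growth and survival genes passed, as did few of all genes tested (3.12%). None of 33 G1/S and 34 G2/M cell cycle genes passed the threshold, with medians of -0.06 and -0.02. By unadjusted p under 0.05, 3 G1/S genes were higher and 2 lower and 2 G2/M genes were higher and 0 lower, and DESeq2 gave 2 higher and 0 lower and 1 higher and 0 lower. Over all genes the shares were 13.7% higher and 8.23% lower by unadjusted p, and 5.92% and 2.43% by DESeq2. All 33 G1/S genes were lower in H929 and differed between the lines, with a median difference of 1.54 on the log2 scale. Of 20 measured BCL2 family genes only BBC3 passed, which encodes the cell death protein PUMA. It was scarce, with 0.0783 and 0.274 CPM in ethanol and 2.17 and 0.887 CPM in fluvastatin (3.06, SE 0.61, edgeR adjusted p = 0.028, or 0.066 without fluvastatin replicate 1), and its rise was 2.31 with GC trends removed. Genes that mark myeloma and plasma cells gave 0 higher and 1 lower of 19 (median -0.12), the lower one being XBP1. The genes that t(4;14) places under immunoglobulin enhancers had overlapping groups as deposited, with FGFR3 at 501 and 463 CPM against 544 and 434.5 CPM (0.02, SE 0.24, edgeR adjusted p = 0.98) and NSD2 at 509.9 and 560.0 CPM against 524 and 542 CPM (-0.01, SE 0.10, edgeR adjusted p = 0.99). With GC trends removed, FGFR3, a gene of 62% GC, had a log2 fold change of -0.39 (SE 0.13, edgeR adjusted p = 0.081). Its values were then 720 and 661 CPM in ethanol and 482 and 572 CPM in fluvastatin, without overlap. The groups of NSD2 still overlapped (-0.08, SE 0.07, edgeR adjusted p = 0.50). BBC3 no longer passed without ethanol replicate 1 or without ethanol replicate 2 (edgeR adjusted p = 0.24).

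The number of genes called lower in the ribosome biogenesis and splicing lists depended on the processing. The medians of these lists moved little when GC trends were removed. Over all genes tested, 0.533% were lower as deposited and 5.84% with GC trends removed. Of 127 ribosome biogenesis genes 0 were higher and 1 lower as deposited, and 0 higher and 47 lower with GC trends removed, with medians of -0.22 and -0.24. Of 91 splicing genes 0 were higher and 1 lower, and 0 higher and 22 lower with GC trends removed, with medians of -0.16 and -0.15. The gene called in the first list was nucleolin, NCL, with 1195 and 1180 CPM in ethanol and 828 and 924 CPM in fluvastatin (-0.44, SE 0.10, edgeR adjusted p = 0.049, or 0.18 without fluvastatin replicate 1). In the other it was TRA2A, a splicing regulator, which had 68.1 and 66.1 CPM against 45.4 and 51.2 CPM (-0.47, SE 0.09, edgeR adjusted p = 0.029, or 0.11 without fluvastatin replicate 1). By unadjusted p under 0.05, 47 ribosome biogenesis genes and 28 splicing genes were lower, and DESeq2 called 19 and 10 lower, against 8.23% and 2.43% of all genes by these 2 measures. Of 78 cytosolic ribosomal protein genes 0 were called in either direction, where 3.12% of all genes tested were called. At an unadjusted p under 0.05 there were 10 higher and 19 lower, and DESeq2 gave 4 higher and 3 lower. NCL and TRA2A no longer passed without ethanol replicate 1 or without ethanol replicate 2 (edgeR adjusted p from 0.27 to 0.32).

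Of 31 interferon response genes 1 was higher and 1 lower (median -0.07), where 2.58% of all genes tested were higher and 0.533% lower. ISG20, an RNase, rose by 1.44 (SE 0.21, edgeR adjusted p = 0.0055). Of 25 NF-kB targets 4 were higher and 0 lower (median 0.14). TRAF1, an adaptor of TNF receptors, went from 8.69 and 8.07 CPM to 42.5 and 42.4 CPM (2.34, SE 0.24, edgeR adjusted p = 0.00067), and REL rose by 0.55 (SE 0.10, edgeR adjusted p = 0.022). The chemokine CCL4 had 1 count over both ethanol libraries and 42 over both fluvastatin libraries, a ratio of 47.5 per total count with an exact binomial 95% interval of 8.08 to 1920.0. ISG20, REL and CCL4 no longer passed without ethanol replicate 1 or without ethanol replicate 2 (edgeR adjusted p from 0.080 to 0.32).

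Among genes that averaged at least 1 in log2 CPM, the largest rises began with CREB5, a partner of AP-1 factors, which went from 0.365 and 0.465 CPM to 8.88 and 10.7 CPM (4.55, SE 0.35, edgeR adjusted p = 0.00013). The chemokine CCL3 went from 1.91 and 3.01 CPM to 40.6 and 73.8 CPM (4.55, SE 0.32, edgeR adjusted p = 7.8e-05). CCL3L3 followed with 4.17, but it is nearly identical to CCL3, so that how reads were divided between them is uncertain. PLEKHG1, an exchange factor for small GTPases, went from 1.25 and 1.20 CPM to 17.0 and 22.5 CPM (4.00, SE 0.22, edgeR adjusted p = 1.6e-05). MAP1B, which binds microtubules, went from 0.861 and 0.848 CPM to 10.9 and 12.9 CPM (3.80, SE 0.16, edgeR adjusted p = 6.3e-06). RHOB and JUN came next, then PRUNE2 (2.63), RND3 and KLHL4 (2.39). In all 10 both fluvastatin libraries lay at least 3 times above both ethanol libraries. The rises of PLEKHG1 and MAP1B were larger in KMS11 than in H929 (differences 2.99 and 2.40, edgeR adjusted p = 0.00072 and 0.00011), and that of PRUNE2 was smaller on the log2 scale (-2.64, edgeR adjusted p = 0.045). In H929 PRUNE2 was near the floor in ethanol, with 0.034 and 0.12 CPM against 1.89 and 4.07 CPM in fluvastatin. KLHL4 no longer passed without ethanol replicate 1 or without ethanol replicate 2 (edgeR adjusted p = 0.22). PRUNE2 passed without ethanol replicate 2 but not without ethanol replicate 1 (edgeR adjusted p = 0.075).

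Among genes that averaged at least 1 in log2 CPM, the largest falls were shallower than the largest rises. The first was ATP6V1G2-DDX39B (-1.52), a read-through gene with exons in common with the genes beside it, so that its count is uncertain (edgeR adjusted p = 0.026, or 0.053 without fluvastatin replicate 1). UBD, a ubiquitin-like protein, had 10.9 and 7.91 CPM against 4.33 and 3.497 CPM (-1.27, SE 0.26, edgeR adjusted p = 0.037). SHH, the hedgehog ligand, had 10.3 and 13.2 CPM against 5.31 and 5.48 CPM (-1.12, SE 0.23, edgeR adjusted p = 0.030, or 0.059 without fluvastatin replicate 1). ABCA1, the peptide hormone ADM (-1.01, adjusted p = 0.045, or 0.067 without fluvastatin replicate 1) and MYLIP followed. HMOX1, which degrades heme, had 31.3 and 34.6 CPM against 20.2 and 14.98 CPM (-0.91, SE 0.17, edgeR adjusted p = 0.018), and SIX4 (-0.90), the sodium channel gene SCN3A (-0.85) and METTL7A (-0.85) completed the set. HMOX1, SIX4, SCN3A and METTL7A had log2 fold changes lower in KMS11 than in H929, with differences of -0.95, -1.77, -2.15 and -2.03 (edgeR adjusted p from 0.00020 to 0.020). ATP6V1G2-DDX39B, UBD, SHH, ADM, HMOX1, SIX4, SCN3A and METTL7A no longer passed without ethanol replicate 1 or without ethanol replicate 2 (edgeR adjusted p from 0.096 to 0.31).

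**Figure D5:**
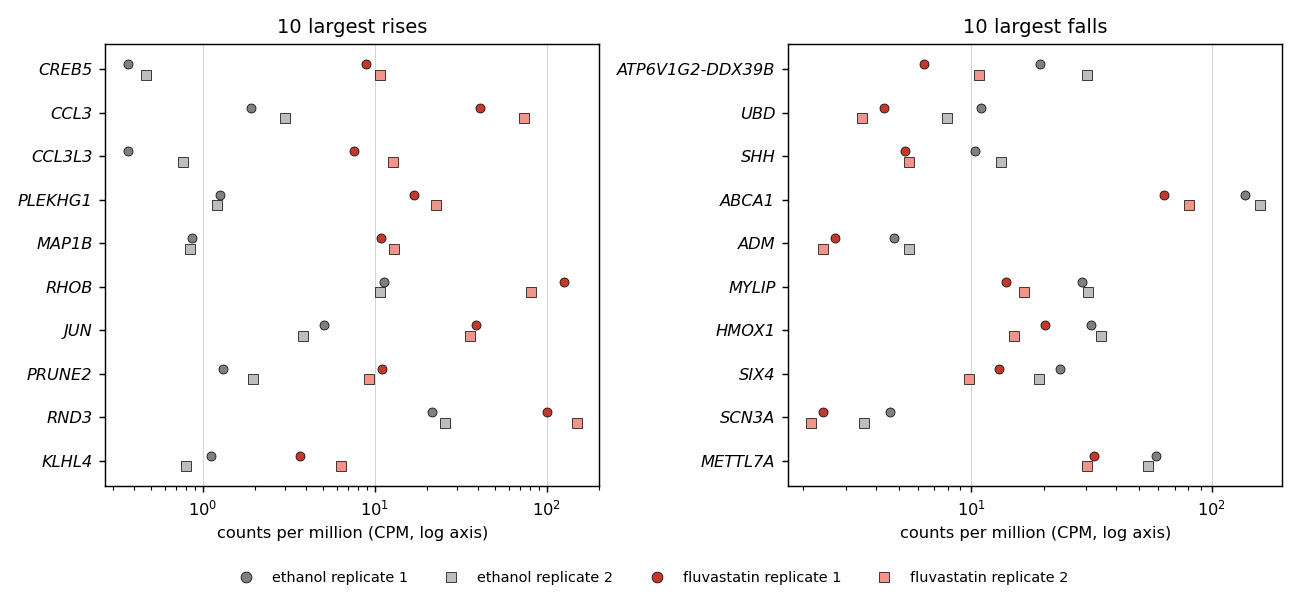
Levels of the 10 genes with the largest rises (left) and the 10 with the largest falls (right), among those that averaged at least 1 in log2 CPM, in each KMS11 library (CPM, log axes that differ between panels), ethanol in grey and fluvastatin in red. By the rule that chose them no gene has overlapping groups. RHOB goes from 11.2 and 10.6 to 80.3 and 125 CPM, while ABCA1 goes from 137 and 159 to 63.3 and 80.1 CPM.

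Some changes came past the threshold only once the GC trends had been removed. The largest such rises were in the histone gene H2AC15 (1.3), PCLO (1.20), the repressor BHLHE41 (1.09), the read-through gene RPL17-C18orf32 (1.07) and the cannabinoid receptor gene CNR1 (1.06). The largest such falls were in ENSG00000196826 (-1.75), HMGA2 (-1.20), MNX1 (-1.13), WT1 (-1.09) and MAML3 (-0.98). As deposited, their adjusted p lay between 0.053 for RPL17-C18orf32 and 0.25 for MNX1, a gene of 68.7% GC, and by the rule that chose them none of the 10 had overlapping groups.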

How the data were processed

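RNA was taken from KMS11 and H929 cells after 24 h in 2 µM fluvastatin or ethanol, with 2 biological replicates per group. Per the labels, libraries were made with a stranded total RNA kit that depletes ribosomal RNA, and the submitters' processing notes name STAR 2.5.2b, RSEM 1.3.0 and hg38. For each library the authors deposited expected counts, which are not normalized, TPM values, which RSEM scales by effective length, and the effective length of each gene. Of 58219 genes listed, GENCODE release 44, which is newer than that of the authors, held 57392 identifiers and classed 19683 as protein-coding. GC content was that of the gene's canonical transcript in that release.

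The rounded expected counts went into edgeR 4.0.16 under R 4.3.3. Genes were kept by filterByExpr (minimum count 10, minimum total 15), scaled by TMM and fitted as 4 group means over all 8 libraries, so that the spread rested on 4 residual degrees of freedom. The quasi-likelihood F test used Benjamini-Hochberg adjustment over every protein-coding gene that was kept, with 0.05 as the threshold. A standard error is the absolute log2 fold change over the square root of F. Total counts per library lay between 26702515 and 41910446, and replicates differed by more than counting error, so that the spread between replicates and not depth limits precision for well-expressed genes. GC trends were removed with offsets from a loess curve (span 0.5) of each library's log2 CPM deviation on GC content. This lowered the common dispersion from 0.0125 to 0.00442. The script was tested on simulated data.

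Alternatives were DESeq2 1.42.0 with and without a filter on Cook's distance (0.8), limma 3.58.1 on log2(TPM + 1), other scalings, filters and thresholds, the 4 KMS11 libraries alone, a replicate block, thinning of counts, and leaving out each library. Removal of GC trends from the KMS11 libraries alone and together with leaving out a KMS11 library were added after seeing the data. The 21 gene lists and 7 marker lists were written from general knowledge, and the members and lists were chosen with earlier results of these data known. Genes named are all members of the MVA and cholesterol lists with regulators and carriers such as SREBF1, SREBF2, INSIG1 and STARD4, the 10 largest rises and falls past the threshold that averaged at least 1 in log2 CPM without overlap between treatments, up to 5 members past the threshold of each other list, a fixed set (ATF4, ATF3, DDIT3, PPP1R15A, RHOB, KLF2, KLF6, FGFR3, NSD2, HSPA5, XBP1), and the 5 largest rises and falls called only with GC trends removed. Promoters are RefSeq's, with the 250 bases before the start searched and the 50 after it left out. FPKM values were not used. Results that concern withheld items are not reported here, while counts over lists include every member.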

Additional observations from a re-analysis of the deposited data

Results flagged for a closer look

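The difference between the responses of KMS11 and H929, tested in one edgeR fit with Benjamini-Hochberg adjustment, passed the threshold for members of every gene list. It did so for 8 of 9 MVA enzymes, 12 of 14 cholesterol synthesis genes, 7 of 14 genes of SREBP control and LDL uptake, 9 of 18 fatty acid synthesis genes and 3 of 9 LXR targets. It passed for 4 of 18 prenylation genes, 10 of 23 small GTPases and regulators, 3 of 32 immediate early genes, 23 of 56 ISR genes and 8 of 39 chaperones and degradation factors. Of the RNA lists, it passed for 43 of 91 splicing genes, 49 of 127 ribosome biogenesis genes and 7 of 78 ribosomal protein genes. It passed for 8 of 33 actin and SRF target genes, 8 of 18 tubulins, 7 of 20 BCL2 family genes, 33 of 33 G1/S genes, 8 of 34 G2/M genes, 9 of 31 interferon genes, 8 of 25 NF-kB targets and 7 of 19 myeloma and plasma cell genes. Over all genes tested the share was 23.2%.

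Among sterol genes, the log2 fold change in KMS11 exceeded that in H929 by 2.00 for ACAT2, 1.80 for HMGCS1, 1.93 for MVK, 2.67 for MVD, 1.15 for IDI1 and 1.28 for FDPS. It did so by 1.17 for FDFT1, 1.49 for SQLE, 0.98 for LSS, 0.97 for CYP51A1, 1.47 for TM7SF2, 1.16 for MSMO1, 1.11 for NSDHL, 1.32 for HSD17B7, 0.82 for ERG28, 1.23 for EBP and 2.36 for DHCR7. For INSIG1 the difference was 1.55, for STARD4 1.0, for NPC1 0.47, and for GGPS1 -0.61. Genes of fatty acid synthesis also responded more in KMS11, with 2.82 for FASN, 1.43 for ACSS2 and 1.18 for ACLY.

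Other genes with the higher log2 fold change in KMS11 were PLEKHG1 (2.99), MAP1B (2.40), CCL3 (1.95), the tubulin genes TUBB2B (1.83) and TUBB2A (1.56), ABCG1 (1.67), ABCA1 (1.42), ADM (1.23), REL (0.60), NCL (0.52), ACTG1 (0.40) and H2AC15 (3.58). The log2 fold change was lower in KMS11 for RHOB (-2.10), RHOC (-1.24), RHOA (-0.87), KLF6 (-1.08), DDIT3 (-0.89), MYL12A (-0.67), HMOX1 (-0.95), SIX4 (-1.77), SCN3A (-2.15), METTL7A (-2.03) and PRUNE2 (-2.64). Every one of these differences had an edgeR adjusted p under the threshold. Of the first set, ABCG1, ABCA1, ADM and NCL fell in both lines and fell less in KMS11. Of the second set, SIX4, SCN3A and METTL7A fell in KMS11 and rose in H929. HMOX1 fell in KMS11 and did not pass in H929 (0.03, edgeR adjusted p = 0.90).

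Among 3579 genes that are not protein-coding, which the main test left out and the alternative with all annotated genes included, 10 were higher and 1 lower with fluvastatin in KMS11.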

How the results depend on the processing

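The 24 sterol genes higher in KMS11 and the 27 that differed between lines stayed within 1.5 times of these counts in every alternative run other than leaving out a library. Of 409 genes (339 higher, 70 lower), 1098 (895 and 203) passed with no filter on low counts, 1707 (940 and 767) with GC trends removed, 1770 (965 and 805) with GC and length trends removed, 1591 (956 and 635) from the KMS11 libraries alone with GC trends removed, 926 (657 and 269) by DESeq2, 925 (659 and 266) by DESeq2 with a filter on Cook's distance, 129 (124 and 5) at an adjusted p under 0.01 and 156 (147 and 9) at a log2 fold change of at least 1. By limma on log2(TPM + 1) 223 passed, 127 higher and 96 lower. Higher genes made up 82.9% of the calls, 77.7% with median-of-ratios scaling and 71.0% by DESeq2. The cause of these moves was not tested.

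For ISR genes higher, 15 passed in each of the 3 settings with GC or GC and length trends removed, 3 by limma and 3 at an adjusted p under 0.01. For immediate early genes higher, 5 passed by limma and 6 at an adjusted p under 0.01. Ribosome biogenesis genes lower numbered 47, 49 and 50 in the GC, GC and length, and KMS11-only GC settings, 19 by DESeq2 with or without the Cook's filter, 13 with no filter on low counts, 2 by limma and 0 with all annotated genes, at an adjusted p under 0.01 and at a log2 fold change of at least 1. RNA splicing genes lower numbered 22, 17 and 16 in the GC settings, 10 by DESeq2 with or without the Cook's filter, 2 with no filter on low counts, and 0 by limma, from the KMS11 libraries alone, at an adjusted p under 0.01 and at a log2 fold change of at least 1.

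Leaving out each library in turn gave from 63 to 2148 genes changed, 60 to 1500 higher and 1 to 648 lower. The ranges were 8 to 26 for sterol genes higher, 1 to 14 for ISR genes, 6 to 14 for immediate early genes, 0 to 39 for ribosome biogenesis and 0 to 23 for splicing genes. The lone sample left in a group was assumed to vary like the other groups. These ranges include the fits that leave out a KMS11 library after removal of GC trends, which changed 724 genes without fluvastatin replicate 1 and 1286 without fluvastatin replicate 2.

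The labels do not say that a replicate number marks a shared culture or day, so the numbers were not taken to pair the samples. Same-numbered libraries had deviations from their group means with a correlation over 5561 genes of -0.0782 in KMS11 and of 0.774 in H929, where they deviated together. With a replicate block, 1637 genes changed (1161 higher, 476 lower), with 16 ISR, 37 ribosome biogenesis and 15 splicing genes in the directions above. With the block and GC trends removed, 3445 changed (1575 and 1870), with 18, 87 and 44. Among 102 named genes tested, 4 values changed sign, those of SREBF1 (-0.32) and FGFR3 (-0.39 and -0.38), which the block with GC trends removed and the KMS11 libraries alone with GC trends removed put past the threshold. Genes past the threshold in neither setting were given no direction. The slope with GC content of ethanol replicate 2 was -0.0571 over genes that averaged at least 5 in log2 CPM, in place of -0.0896.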

Other observations

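The following genes are in no list above and were chosen after their values were seen. CDKN1A, which encodes the cell cycle inhibitor p21, went from 2.56 and 3.17 CPM to 12.02 and 14.6 CPM (2.22, SE 0.19, edgeR adjusted p = 0.00027) and rose more than in H929 (difference 1.71, edgeR adjusted p = 0.0014). CDKN2B, which encodes the cell cycle inhibitor p15, went from 21.1 and 15.9 CPM to 46.5 and 45.2 CPM (1.31, SE 0.18, edgeR adjusted p = 0.0042), and SFN, a 14-3-3 protein, from 0.339 and 0.164 CPM to 3.07 and 2.27 CPM (3.37, SE 0.52, edgeR adjusted p = 0.0085). EZR, ezrin, which links the membrane to actin, went from 192 and 202 CPM to 405 and 378 CPM (0.99, SE 0.09, edgeR adjusted p = 0.00031), CD44, an adhesion receptor that ezrin family proteins bind, from 61.3 and 66.7 CPM to 123 and 130 CPM (0.98, SE 0.12, edgeR adjusted p = 0.0027), and ANXA2, an annexin, from 228 and 245 CPM to 415 and 464 CPM (0.90, SE 0.10, edgeR adjusted p = 0.0014). VIM, vimentin, rose by 0.76 (edgeR adjusted p = 0.0022) and SPTAN1, a spectrin, by 1.36 (edgeR adjusted p = 0.00075).

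SPTLC2, a subunit of the enzyme that begins sphingolipid synthesis, rose by 0.62, CERT1, which carries ceramide to the Golgi, by 0.55, and UGCG, which adds glucose to ceramide, by 0.65 (edgeR adjusted p from 0.0092 to 0.017). SLC25A1, which exports citrate from mitochondria, rose by 1.21 (edgeR adjusted p = 0.013) and by 0.69 with GC trends removed, and IDH1, a source of NADPH, by 0.50 (edgeR adjusted p = 0.015). Both rose more than in H929 (differences 1.48 and 0.52, edgeR adjusted p = 0.0064 and 0.015). All of the genes named so far in this part also passed with GC trends removed and without fluvastatin replicate 1. CDKN1A, EZR and SPTAN1 passed without either ethanol replicate, while the others did not pass in at least 1 of those 2 fits (larger edgeR adjusted p from 0.068 for ANXA2 to 0.29 for CERT1).

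Only 2 genes past the threshold fell by more than 4-fold. GPR171, a G protein-coupled receptor, went from 3.13 and 3.06 CPM to 0.722 and 0.757 CPM (-2.06, SE 0.30, edgeR adjusted p = 0.0062, or 0.078 and 0.065 without ethanol replicate 1 and 2). CXCL16, a chemokine, had counts of 9 and 10 in ethanol and 0 and 1 in fluvastatin, too few for a fold change. Among the genes that are not protein-coding, the single fall was in the immunoglobulin segment IGKV3-11, with 442 and 505 counts in ethanol and 12 and 8 in fluvastatin. Segments of this family are close in sequence, and how reads were divided between them was not tested. The mitochondrial ribosomal RNAs MT-RNR1 and MT-RNR2 rose by 1.3 and 0.92 (edgeR adjusted p = 0.00020 and 0.0096) in libraries depleted of ribosomal RNA, and MIR34AHG, the host of a microRNA induced by p53, by 1.10 (edgeR adjusted p = 0.014).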
